A study of Bos taurus with 12 samples.

Results

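Mitosis and G2/M genes were followed across 12 RNA sequencing libraries of cattle (Bos taurus) precursor adipocytes. The list holds 49 genes, chosen by name with earlier results of these data known. All 49 were found among the 29240 genes of the count table. All 49 also passed the filter on low counts that left 16300 genes for testing. Cells of every group were transfected and collected 48 h later, with 3 libraries in each of 4 groups. In the interference experiment the group si was set against its negative control si_NC. The labels name no target for si. In the overexpression experiment the group OE, which received pcDNA3.1 carrying the coding sequence of HGFAC (a secreted serine protease that activates hepatocyte growth factor), was set against OE_NC, which received pcDNA3.1-NC. The labels give no genotype, sex or age for the cells and leave unsaid whether the 3 libraries of a group came from different cultures. The p-values therefore cover the spread between these libraries, which may be technical.

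A dividing cell enters mitosis when cyclin B and the kinase CDK1 become active together. Chromosomes are then compacted by condensins and topoisomerase II, captured at kinetochores by spindle microtubules, and held back from separating by the spindle checkpoint until the anaphase-promoting complex is switched on by CDC20. Transcripts of these genes accumulate in G2 and M, so in bulk RNA their level reflects both the share of cells in these phases and the RNA per cell, which cannot be told apart here. Precursor adipocytes divide in culture and leave the cell cycle as they mature into fat cells.

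Libraries held 28.9 to 42.7 M counts assigned to genes, and members took 0.632 to 0.857 percent of them. HGFAC itself stood at 161.0 ± 26.3 in OE and 0.393 ± 0.127 normalised CPM in OE_NC (mean ± SD, n = 3; log2 change 8.67 ± 0.19, edgeR adjusted p = 4.31e-13; exact permutation p = 0.1, the smallest that 3 against 3 libraries allow). In si it stood at 0.658 ± 0.165 against 0.83 ± 0.0988 in si_NC (log2 change −0.35 ± 0.27, edgeR adjusted p = 0.512). Stromal markers were abundant, with summed levels of 13195 to 22661 CPM over 9 genes per library, although DLK1 and CD34 stayed below 0.2 CPM. The 5 markers of mature fat cells summed to 5.63 to 16.4 CPM. Summed levels were 6.96 to 9.77 CPM for 5 immune markers, 2.26 to 3.05 CPM for 4 endothelial markers and 1.18 to 3.7 CPM for 4 epithelial markers. Of 4 muscle markers, DES reached 462 to 733 CPM and the other 3 stayed below 0.2 CPM.

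Nearly all of the mitotic genes were expressed above the typical gene of these cells, some of them only slightly. On the deposited RPKM scale, which divides counts by exon length and library total, the median member averaged 17.6 RPKM over the 12 libraries, against 2.94 RPKM for the median of all genes tested. Levels of 47 of the 49 lay above that median gene. The exceptions were FOXM1, the transcription factor that drives G2/M genes (2.76 RPKM), and CDC25C, a phosphatase that activates CDK1 (1.83 RPKM). PRC1, which bundles microtubules of the central spindle, had the highest level (160.5 RPKM, rank 460 of 16300 genes). It was followed by MKI67, the Ki-67 protein that coats mitotic chromosomes (118 RPKM), and ANLN, the actin-binding anillin of the cleavage furrow (104 RPKM).

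By role, the 7 genes of condensin and chromosome structure had a median of 41.3 RPKM, from the condensin subunit NCAPH at 5.4 to MKI67. Among them SMC4 stood at 93.6 RPKM and its partner ATPase SMC2 at 41.3 RPKM, with NCAPG at 31.8 and NCAPD2 at 14.9 RPKM. TOP2A, which untangles sister DNA, reached 83.5 RPKM. The 6 cytokinesis genes had a median of 38.0 RPKM: below PRC1 and ANLN came the kinesin KIF20A (48.2 RPKM), RACGAP1 (27.8) with its partner kinesin KIF23 (14.8), and ECT2 (15.5), the exchange factor that activates RhoA at the furrow. KIF23 shares 2786 of its 6594 exon bases with PAQR5, which averaged 0.107 CPM, so reads may have been lost from KIF23 where counting leaves out shared bases.

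The 6 kinetochore and centromere genes had a median of 26.4 RPKM. CENPF (51.1 RPKM) and the kinesin CENPE (38.8) were highest, then the NDC80 complex with NDC80 at 37.8, NUF2 at 15.0 and SPC25 at 13.4 RPKM, while the centromeric histone CENPA stood at 4.46 RPKM. The 8 spindle genes had a median of 24.6 RPKM, led by TPX2, the activator of Aurora A (63.9 RPKM), and HMMR (36.1), which anchors spindle poles. The kinesins KIF2C, KIF11 and KIF4A stood at 28.5, 26.6 and 18.1 RPKM, and ASPM, DLGAP5 and NUSAP1, which organise spindle microtubules, at 22.7, 17.6 and 11.8 RPKM. In the chromosomal passenger complex, which corrects faulty attachments, the scaffold INCENP (96.0 RPKM) and survivin, BIRC5 (36.5), exceeded borealin, CDCA8 (12.5), and the kinase AURKB (6.29).

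The 9 mitotic entry genes had a median of 15.1 RPKM and ran from CDC25C to cyclin B1. The latter, CCNB1, stood at 97.8 RPKM, cyclin A2, CCNA2, at 41.8, and cyclin B2, CCNB2, at 13.8. The kinases PLK1, AURKA and CDK1 reached 21.2, 15.2 and 15.1 RPKM. CDC25B, the phosphatase that starts CDK1 activation, was low at 3.44 RPKM. The 9 checkpoint and anaphase genes had the lowest median, that of CDC20 (11.005 RPKM). BUB1B, the BubR1 protein of the checkpoint complex, led them at 55.3 RPKM, above the other checkpoint genes BUB1 (17.3), MAD2L1 (14.3), TTK (7.7) and BUB3 (6.51). CDC20 and UBE2C, the activator and the ubiquitin-conjugating enzyme of the anaphase-promoting complex, stood at 11.005 and 10.6 RPKM, and separase, ESPL1, at 5.25. Securin, PTTG1 (16.7 RPKM), is uncertain, since its row in the count table joins exons far apart on chromosome 7.

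**Figure D1:**
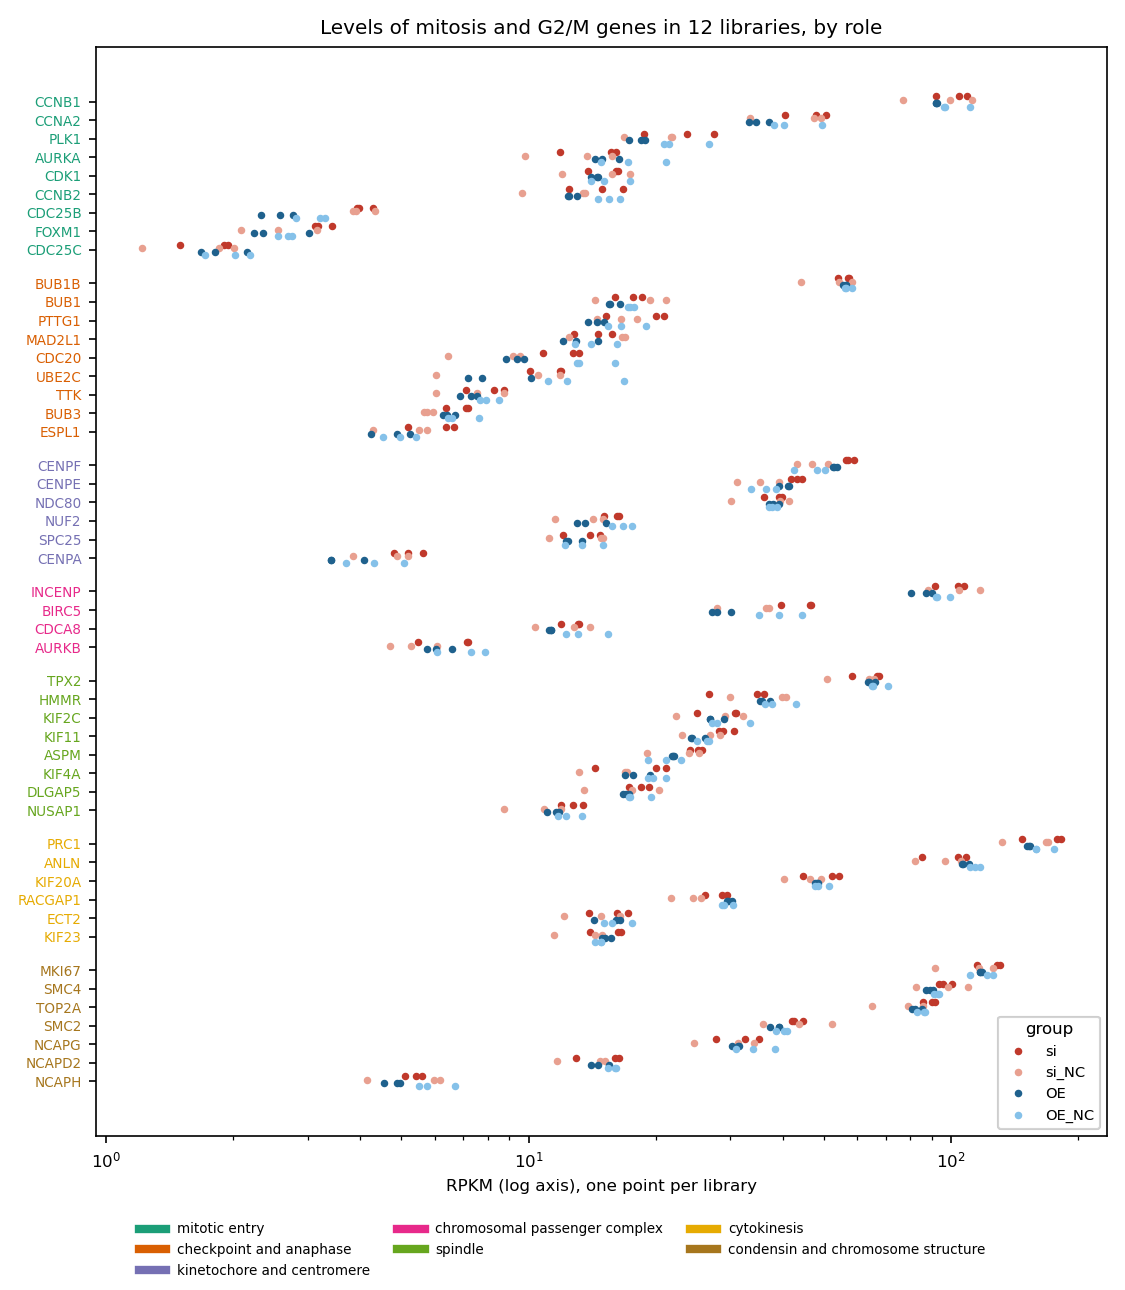
RPKM of each of the 49 members (horizontal log axis) in each of the 12 libraries, 1 point per library coloured by group, with genes ordered by mean level within their role. Points of 1 gene lie close together beside the spread between genes, which runs from a mean of 1.83 RPKM for CDC25C to 160.5 RPKM for PRC1.

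Group means of these genes lay close together. The ratio of the highest to the lowest group mean had a median of 1.16 over the 49 members and exceeded 1.5 for 4: CDC25B, CDC20, UBE2C and BIRC5. The ratio of the highest to the lowest of the 12 libraries had a median of 1.49. Values below are normalised CPM, which allow a gene to be compared between libraries.

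MKI67 was at 1443, 1410.1 and 1279.5 CPM in si and at 1491, 1047 and 1359 CPM in si_NC. It was at 1328, 1359 and 1327 CPM in OE and at 1228, 1319 and 1375 CPM in OE_NC. The groups overlapped throughout, and si_NC replicate 2 was the lowest library.

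TOP2A was at 499.97, 507 and 479.8 CPM in si and at 513, 375 and 466 CPM in si_NC. It was at 489, 475 and 461 CPM in OE and at 462, 475 and 474 CPM in OE_NC. Again 1 control library, si_NC replicate 2, lay apart, below the other 11.

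CDK1 was at 57.5, 56.5 and 49.1 CPM in si and at 65.8, 43.9 and 58.9 CPM in si_NC. It was at 50.9, 53.5 and 52.5 CPM in OE and at 61.6, 52.5 and 49.1 CPM in OE_NC. Both the highest and the lowest value of CDK1 were in si_NC.

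CCNB1 was at 150.2, 156 and 134 CPM in si and at 174, 115 and 152 CPM in si_NC. It was at 137, 138 and 136 CPM in OE and at 160.4, 137 and 138 CPM in OE_NC. As for CDK1, si_NC held both ends of the range, while OE spanned 135.9 to 137.7 CPM.

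The members moved together from library to library. In si_NC replicate 2, all 49 members were lowest of the 3 si_NC libraries, which was so for 39.2 percent of all genes tested. Of the 49, 38 were lowest there of all 12 libraries, against 10.2 percent of all genes. The median member lay 0.30 log2 units below its mean over the 12 libraries in that library (−0.30), and 0.17 above it in si_NC replicate 1. In si replicate 3 the median was −0.091 and 43 members were lowest of their group (41.7 percent of all genes), and in OE_NC replicate 1 it was 0.15 with 40 members highest of their group (38.7 percent of all genes). In OE the 3 libraries lay between −0.060 and −0.0090. The median coefficient of variation of a member within its group was 3.68 percent in OE, 7.68 percent in OE_NC, 8.41 percent in si and 16.4 percent in si_NC.

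Genes outside the list shifted in the same libraries. With group means removed, the 36 DNA replication genes, which act in S phase, had a median of −0.28 in si_NC replicate 2, where the members had −0.28. In si_NC replicate 1 the medians were 0.21 and 0.18, and in OE_NC replicate 1 they were 0.204 and 0.10. Library si_NC replicate 2 also had the fewest counts (28.9 M), and the part of depth in its low member levels was not tested. With group means removed, the median correlation between members (Pearson, log2 CPM) was 0.82 over the 12 libraries, which share depth and preparation, and 47 members correlated above 0.5 with the median of the others. Over all genes tested, 25.7 percent correlated above 0.5 with the members' median. Without si replicate 3 and si_NC replicate 2 the median correlation was 0.44 over 10 libraries, and 35 members exceeded 0.5. CDC25B stood apart with a correlation of −0.12.

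**Figure D2:**
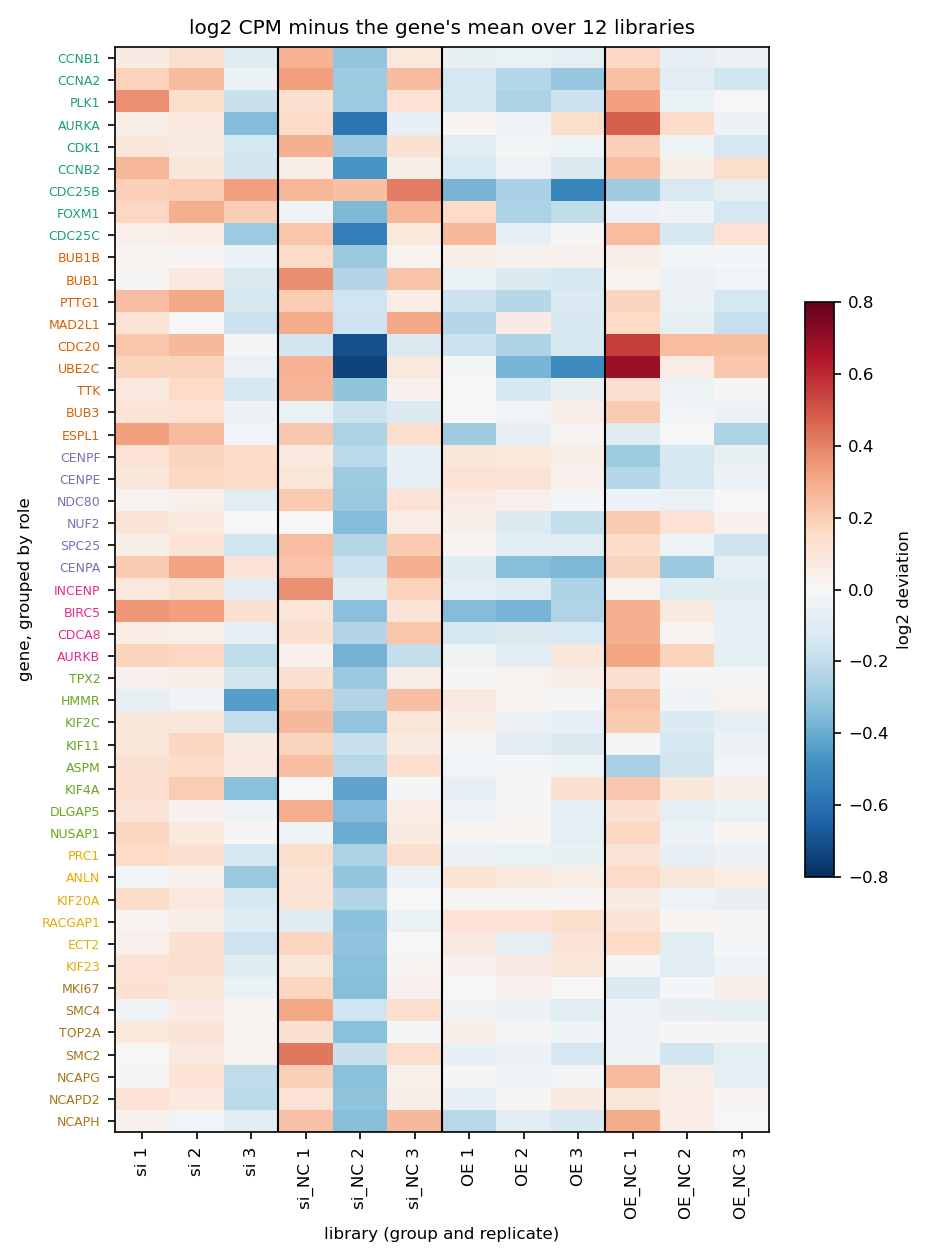
Deviation of each member's log2 CPM from its own mean over the 12 libraries (colour, red above and blue below), with libraries in columns by group and replicate and genes in rows by role. The column of si_NC replicate 2 is blue for 48 of the 49 members (median −0.30), while si_NC replicate 1 and OE_NC replicate 1 are mostly red.

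In the interference experiment no member passed the test. EdgeR's quasi-likelihood test, with Benjamini-Hochberg adjustment over the 16300 genes and a threshold of 0.05, called 0 of the 49, beside 2.54 percent of all genes (0.92 percent higher and 1.62 percent lower). DESeq2 called 1 member. The share of all genes called by DESeq2 is not given here, so that count cannot be set beside it. At an unadjusted edgeR p under 0.05 were 4 members, all higher, beside 18.9 percent of all genes (9.03 percent higher and 9.88 percent lower). The median log2 change of the members was 0.041, against 0.025 for all genes tested, and 32 of 49 were positive, beside 54 percent of all genes. The 95% interval lay within a 1.5-fold change in either direction for 47 of the 49 members. These intervals use a spread pooled over the 4 groups, while members varied most within si_NC (median coefficient of variation 16.4 percent). Since members moved together, the intervals are not independent of each other. By role, medians ran from −0.0017 for condensin and chromosome structure to 0.12 for kinetochore and centromere genes, and each of the 7 had the opposite sign with at least 1 of the 6 libraries left out.

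CDC20 came closest. It stood at 24.0, 24.7 and 20.5 CPM in si and at 18.5, 12.6 and 19.0 CPM in si_NC, so the groups did not overlap (log2 change 0.46 ± 0.14, 95% interval 0.17 to 0.76, edgeR adjusted p = 0.0877). BIRC5, which blocks caspases and anchors the passenger complex, was at 75.7, 74.9 and 64.9 CPM in si and at 63.8, 47.2 and 63.9 CPM in si_NC (log2 0.30 ± 0.12, edgeR adjusted p = 0.18). Groups did not overlap for 4 members, all higher in si, beside 20.8 percent of all genes (10.2 percent higher): CDC20, BIRC5, CENPF (log2 0.21 ± 0.08, edgeR adjusted p = 0.159) and BUB3. CENPE had a log2 change of 0.21 ± 0.09 (edgeR adjusted p = 0.191), HMMR of −0.26 ± 0.13 (edgeR adjusted p = 0.277) and CDC25B of −0.065 ± 0.10 (edgeR adjusted p = 0.781). The 9 stromal markers summed to 17962 to 22661 CPM in si and to 13195 to 17909 CPM in si_NC, without overlap, although the ranges nearly met. Of the 7 that were tested, 5 were higher at an unadjusted p under 0.05 and THY1 was called (log2 0.66 ± 0.14, edgeR adjusted p = 0.0263). Groups did not overlap for 4 of the 7. They overlapped for PDGFRA, COL1A2 and ENG, and ENG was lower on average in si (61.1 against 63.6 CPM). The 4 epithelial markers summed to 2.15 to 3.25 CPM in si and to 1.18 to 2.04 CPM in si_NC. Transcripts of mitochondrially encoded proteins made up 2.01 to 2.26 percent of counts in si and 1.58 to 1.7 percent in si_NC, also without overlap. The part of these in the members' values was not tested.

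These values leaned on si_NC replicate 2. Without it the members' median was −0.092 and edgeR called 2, BUB1 and HMMR, both lower in si (HMMR log2 −0.41, adjusted p = 0.0405). Without si replicate 3 the median was 0.11 and CDC20 was called (log2 0.54, edgeR adjusted p = 0.0497). The median was 0.15 without si_NC replicate 1, 0.079 without si_NC replicate 3, 0.0023 without si replicate 1 and 0.00054 without si replicate 2. With si replicate 3 and si_NC replicate 2 both left out it was −0.015, with 0 members called. Shares of all genes called in these refits are not given here.

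With HGFAC overexpression, edgeR called 1 of the 49 members: CDC20 was lower. The share called among all genes was 4.47 percent, with 2.25 percent lower and 2.22 percent higher. CDC20 (chromosome 3, 102655153 to 102659180 on the minus strand, in the coordinates of the count table, whose build is not given in the sources used here) stood at 18.2, 17.3 and 18.8 CPM in OE and at 30.2, 24.4 and 24.3 CPM in OE_NC. All 3 OE libraries lay below all 3 OE_NC libraries. The log2 change was −0.54 ± 0.14 (95% interval −0.83 to −0.24, edgeR adjusted p = 0.0422). The call was lost in 5 of 6 refits with 1 library left out. Leaving out an OE library gave an adjusted p of 0.105 (replicate 1), 0.158 (replicate 2) or 0.114 (replicate 3). Leaving out an OE_NC library gave 0.162 (replicate 1), 0.0898 (replicate 2) or 0.0424 (replicate 3, where CDC20 stayed called). Log2 changes ran from −0.61 to −0.44. It also ended with the trend on gene length removed (log2 −0.44, edgeR adjusted p = 0.0661).

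BIRC5 (chromosome 19, 53940674 to 53947960, minus strand) was at 46.8, 46.0 and 50.5 CPM in OE and at 72.4, 62.9 and 56.6 CPM in OE_NC, without overlap (log2 −0.42 ± 0.12, edgeR adjusted p = 0.0549). It was called without OE_NC replicate 3 (log2 −0.52, edgeR adjusted p = 0.0372). UBE2C (chromosome 13, 74588078 to 74592792, plus strand) was at 10.6, 8.2 and 7.48 CPM in OE and at 17.1, 11.1 and 12.4 CPM in OE_NC. Its groups did not overlap either, and OE_NC replicate 1 was the highest of the 12 libraries (log2 −0.63 ± 0.22, edgeR adjusted p = 0.103). CDC25B had a log2 change of −0.22 ± 0.11 (edgeR adjusted p = 0.223).

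In the other direction, CENPF was at 583, 579.8 and 569 CPM in OE and at 449.8, 501 and 525 CPM in OE_NC (log2 0.23 ± 0.08, edgeR adjusted p = 0.0953). CENPE was at 402, 402 and 379.6 CPM in OE and at 317, 339 and 359.7 CPM in OE_NC (log2 0.22 ± 0.09, edgeR adjusted p = 0.138). In both kinetochore genes all OE libraries were above all OE_NC libraries. Groups did not overlap for 4 members higher in OE, beside 17.4 percent of all genes, and for 8 lower in OE, beside 16 percent (33.3 percent in either direction).

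The members as a list had a median log2 change of −0.051 in OE, against −0.0046 for all genes tested, and 13 of 49 were positive, beside 49.3 percent of all genes. All 9 mitotic entry genes had a negative estimate (median −0.17) and all 4 passenger complex genes did (median −0.18), with 0 called in either. Both leaned on OE_NC replicate 1: without it the medians were −0.029, with 7 of 9 negative, and −0.099. Without OE replicate 2 or OE replicate 3, 7 of the 9 entry genes were negative, and without OE_NC replicate 3 the passenger complex had a median of −0.29. Medians were −0.084 for checkpoint and anaphase genes, −0.035 for spindle genes, −0.00046 for condensin and chromosome structure, 0.013 for kinetochore and centromere genes and 0.017 for cytokinesis genes. The 95% interval lay within a 1.5-fold change for 46 of the 49, again with the pooled spread and with intervals that are not independent. The median was −0.011 without OE_NC replicate 1 and −0.099 without OE_NC replicate 2. Of the other cell types' markers, DES rose with OE (702 to 733 CPM against 501 to 575 CPM, log2 0.42 ± 0.10, edgeR adjusted p = 0.0399), while MYOD1, MYF5 and MYOG stayed below 0.2 CPM. The 5 markers of mature fat cells summed to 10.7 to 11.8 CPM in OE and to 8.26 to 9.81 CPM in OE_NC, without overlap. That sum was mostly FABP4 (8.27 ± 0.793 in OE and 6.10 ± 0.875 CPM in OE_NC). PLIN1 and CIDEC overlapped between groups, LEP was lower on average in OE (0.019 against 0.122 CPM) and ADIPOQ stayed below 0.2 CPM. EdgeR called 0 of the 3 fat cell markers tested (smallest adjusted p = 0.51). The part of these in the results was not tested.

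**Figure D3:**
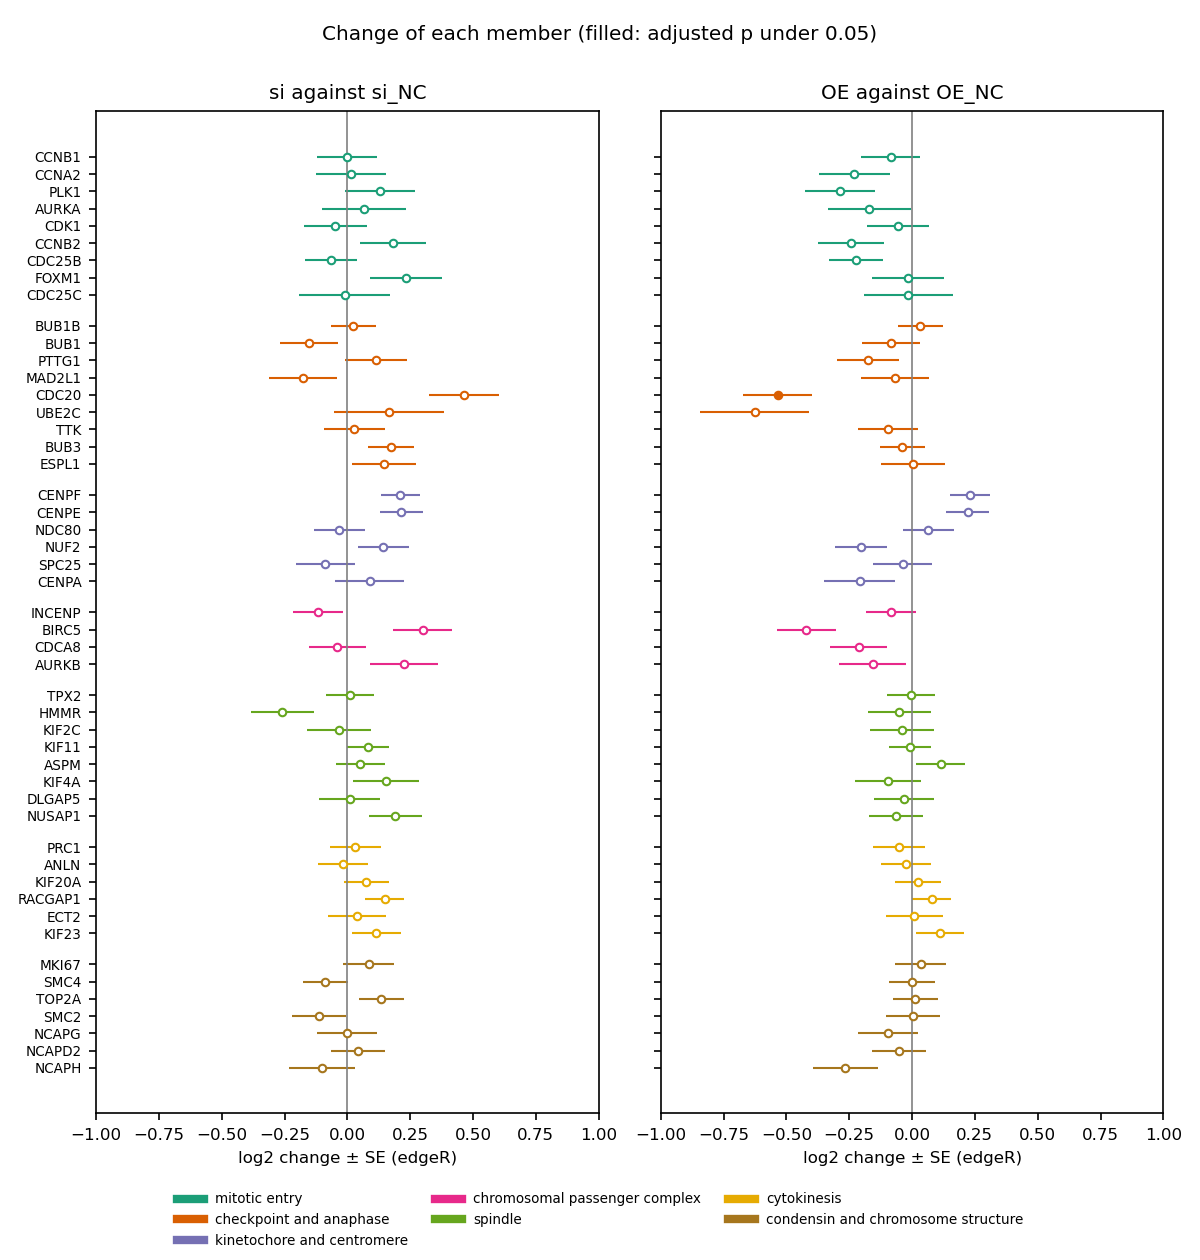
Log2 change ± SE of each member in si against si_NC (left) and in OE against OE_NC (right), by role, with a filled point where the edgeR adjusted p is under 0.05. Most points lie within 0.25 of 0, and the 1 filled point is CDC20 in OE (−0.54).

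Changes of the members in OE ran with the length of their exons. Summed exon length spans 1033 bases (UBE2C) to 11250 bases (MKI67) in the list, with a median of 3494. The Spearman correlation of log2 change with length was 0.67 across the 49 members and 0.35 across all genes tested in OE against OE_NC, and −0.13 and −0.018 in si against si_NC. Genes are not independent replicates, and these are given as descriptions. In OE the shorter members had a median log2 change of −0.16 and the longer ones of −0.0053. With the trend of each library on length removed, the members' median in OE was −0.070, against 0.022 for all genes tested, and 0 members were called. UBE2C then had a log2 change of −0.39 (edgeR adjusted p = 0.273), BIRC5 of −0.29 (adjusted p = 0.12), CENPF of 0.14 (adjusted p = 0.318) and CENPE of 0.13 (adjusted p = 0.417). The share of counts from mitochondrially encoded proteins was 1.31 to 1.37 percent in OE and 1.72 to 1.8 percent in OE_NC, so it was lower in OE and, as given above, higher in si than in the controls, as were CDC20 and BIRC5. The part of that share in these changes was not tested.

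**Figure D4:**
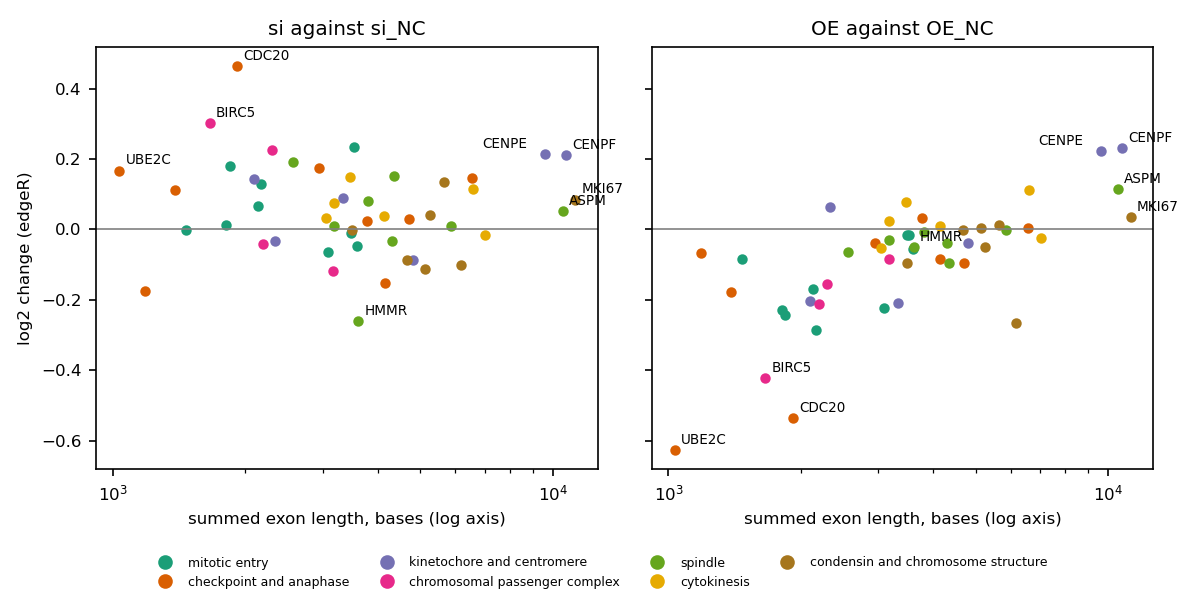
Log2 change of each member (vertical axis) against its summed exon length in bases (horizontal log axis), 1 point per gene coloured by role, for si against si_NC (left) and OE against OE_NC (right). In OE the short genes UBE2C, CDC20 and BIRC5 lie lowest and the long genes CENPF and CENPE highest, while in si CDC20 and BIRC5 lie highest.

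The changes in the 2 experiments were compared by the difference itself, OE minus OE_NC less si minus si_NC, whose changes share no library. It was called for 2 of the 49 members, both lower, beside 8.41 percent of all genes (4.12 percent lower and 4.29 percent higher). For CDC20 the difference was −0.999 ± 0.20 (log2, 95% interval −1.42 to −0.58, edgeR adjusted p = 0.00819). For BIRC5 it was −0.72 ± 0.17 (95% interval −1.08 to −0.37, edgeR adjusted p = 0.0171). In both genes si libraries lay above their controls and OE libraries below theirs. CDC20 stayed called without any 1 of the 12 libraries, and with the length trend removed (log2 −0.84, edgeR adjusted p = 0.0085). The call of BIRC5 ended without si replicate 1 (adjusted p = 0.0533), si replicate 2 (0.051) or OE replicate 2 (0.0568).

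Next in order, and not called, were UBE2C (log2 −0.79 ± 0.31, edgeR adjusted p = 0.126), the NDC80 complex subunit NUF2 (−0.35 ± 0.15, adjusted p = 0.155) and CCNB2 (−0.42 ± 0.19, adjusted p = 0.173). CDC25B had a difference of −0.16 ± 0.15 (adjusted p = 0.564). The members' median difference was −0.084, against −0.025 for all genes tested, and 0.032 without si_NC replicate 2.

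The 2 control groups also differed, in both transfection and experiment, which cannot be told apart. EdgeR called 2 of 49 members in OE_NC against si_NC, 1 higher and 1 lower, beside 19.7 percent of all genes (9.49 percent higher and 10.2 percent lower). CDC20 was higher in OE_NC, at 26.3 ± 3.36 against 16.7 ± 3.56 CPM (n = 3 each; log2 0.65 ± 0.14, edgeR adjusted p = 0.00517). CDC25B (chromosome 13, 51395121 to 51404718, minus strand) was at 8.54, 9.58 and 9.91 CPM in OE_NC and at 12.5, 12.3 and 13.9 CPM in si_NC. It was lower in all 3 OE_NC libraries (log2 −0.47 ± 0.10, edgeR adjusted p = 0.00687). In si it was at 11.9, 12.0 and 13.1 CPM and in OE at 8.04, 8.71 and 7.24 CPM, so all 6 libraries of the overexpression experiment lay below all 6 of the interference experiment.

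Among the rest, RACGAP1 (log2 0.20 ± 0.08, edgeR adjusted p = 0.0826), AURKB (0.31 ± 0.13, adjusted p = 0.113) and SMC2 (−0.23 ± 0.11, adjusted p = 0.142) came closest, and BIRC5 had 0.13 ± 0.12. At an unadjusted p under 0.05 were 6 members, 3 higher and 3 lower, beside 34.1 percent of all genes (17.2 percent higher and 16.9 percent lower). Groups did not overlap for 4 members higher in OE_NC, beside 18.4 percent of all genes, and for 1 lower, beside 17.4 percent (35.8 percent in all). The members' median was 0.015, against 0.020 for all genes tested, and 26 of 49 were positive, beside 52.3 percent of all genes. Without si_NC replicate 2 the median was −0.13 and 7 members were called: CDC20 higher, and CDC25B, BUB1, INCENP, ASPM, SMC2 and SMC4 lower in OE_NC. The share of all genes called in that refit is not given here. CDC20 and CDC25B stayed called without any 1 of the 6 libraries.

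**Figure D5:**
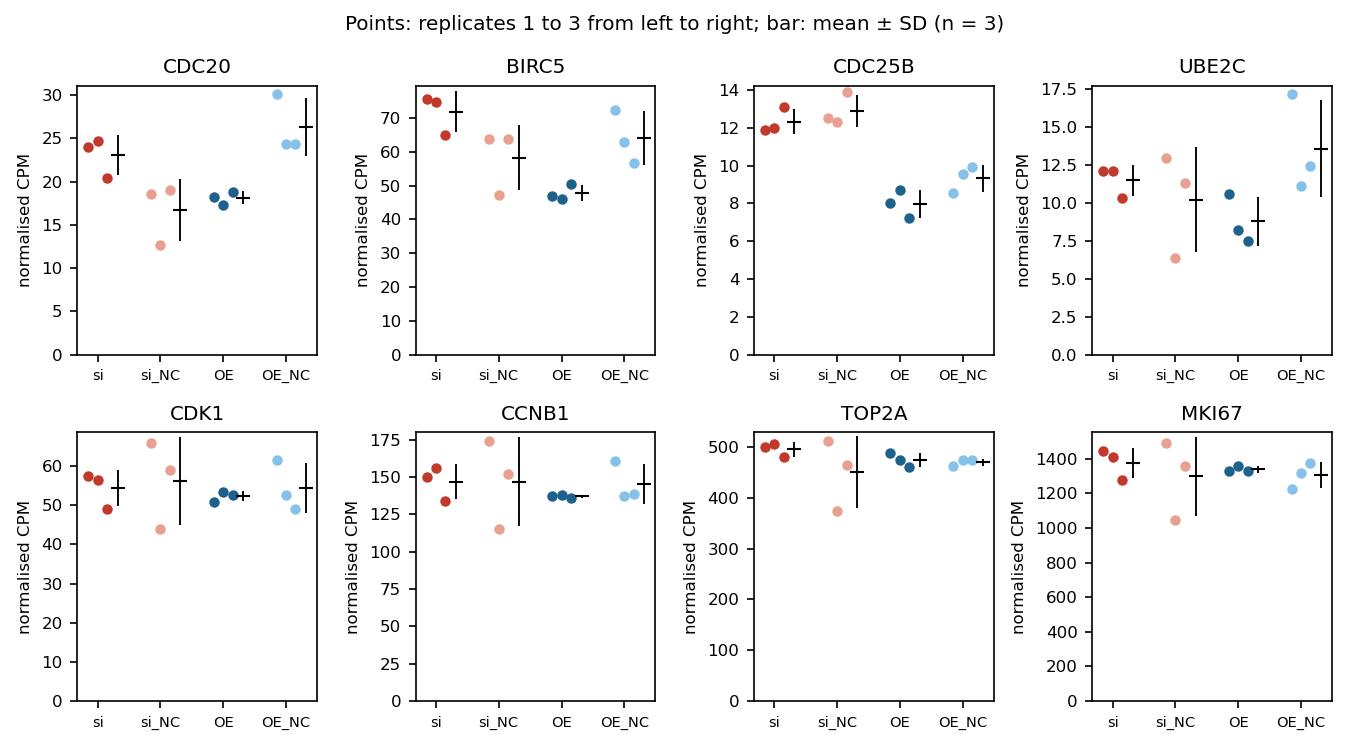
Normalised CPM (vertical axis, from 0) of 8 members in the 4 groups, with 1 point per library and a bar for the mean ± SD (n = 3). CDC20 and BIRC5 are lower in OE than in OE_NC, CDC25B is lower in all libraries of the overexpression experiment, and the lowest point of CDK1, CCNB1, TOP2A and MKI67 is si_NC replicate 2.

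Other genes of the cell division machinery were read beside the members. In si, edgeR called 0 of 16 genes of the anaphase-promoting complex, 0 of 35 other kinetochore and centromere genes, 0 of 29 other spindle and cytokinesis genes, 0 of 19 other mitotic entry regulators, 0 of 13 cohesin genes, 0 of 3 other condensin subunits and 0 of 13 genes of the MuvB, DREAM and MYB complexes. Counts at an unadjusted p under 0.05 were 4, 4, 3, 4, 3, 0 and 0 in that order, beside the 18.9 percent of all genes. Of 36 DNA replication genes edgeR called 1 as lower, CCNE1, the cyclin E1 that drives entry into S phase. CCNE1 was at 3.26 ± 0.15 in si and 6.5 ± 1.36 CPM in si_NC (log2 −0.99 ± 0.21, edgeR adjusted p = 0.0248). Of the 36, 28 were negative (median log2 −0.084). At an unadjusted p under 0.05, 6 were lower, beside 9.88 percent of all genes. CCNE1 was no longer called when si replicate 1 (adjusted p = 0.0978), si replicate 2 (0.0928) or si_NC replicate 1 (0.137) was left out, with only the groups compared (0.0847) or with limma on log2(RPKM + 0.1) (0.062).

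In OE, edgeR called 3 of the 19 other mitotic entry regulators, all lower. CKS2, a small subunit of CDK complexes, was at 12.8 ± 0.692 against 19.2 ± 2.4 CPM (log2 −0.58). ARPP19, an inhibitor of the phosphatase PP2A, was at 117 ± 4.65 against 154 ± 14.2 CPM (log2 −0.39). The kinase MELK was at 10.4 ± 0.405 against 14.4 ± 2.39 CPM (log2 −0.47). EdgeR adjusted p-values were 0.0498, 0.0498 and 0.0472. UBE2S, which extends ubiquitin chains for the anaphase-promoting complex, was the 1 of 16 in its list that was called. It was lower, with 22.9 ± 2.56 CPM in OE and 40.7 ± 10.1 CPM in OE_NC (log2 −0.83 ± 0.17, edgeR adjusted p = 0.0235). GTSE1, a microtubule-associated protein, was the 1 of 29 in its list that was called. It was lower, with 14.3 ± 0.641 CPM in OE and 18.8 ± 1.21 CPM in OE_NC (log2 −0.39, edgeR adjusted p = 0.0401). The cohesin loader NIPBL was the 1 of 13 in its list that was called. It was higher, with 260.5 ± 4.05 CPM in OE and 209 ± 17.5 CPM in OE_NC (log2 0.32 ± 0.07, edgeR adjusted p = 0.0274). Each of these 6 lost its call when OE replicate 2, OE replicate 3, OE_NC replicate 1 or OE_NC replicate 2 was left out, and all but UBE2S also when OE replicate 1 was. Limma on log2(RPKM + 1) also missed the threshold for CKS2 (adjusted p = 0.0556), ARPP19 (0.0525) and NIPBL (0.0529). With the length trend removed, edgeR gave CKS2 a log2 change of −0.29 (adjusted p = 0.204) and no longer called MELK (0.0566). EdgeR called 0 in the other lists. Called or not, 11 of the 13 cohesin genes were positive (median log2 0.17). At an unadjusted p under 0.05, 9 were higher and 1 lower. Of the 19 entry regulators 17 were negative (median −0.20), with 7 lower and 0 higher at that level. Of the 29 spindle and cytokinesis genes 21 were negative (median −0.11), with 4 lower and 3 higher. Beside these, 11.1 percent of all genes were higher and 11.8 percent lower at that level.

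Without a call, the 36 DNA replication genes had a median log2 change of −0.23 in OE, with 35 negative and 12 lower at an unadjusted p under 0.05, beside 11.8 percent of all genes. Without OE_NC replicate 1 the median was −0.14, with 33 negative and 4 lower at that level, and without OE replicate 2 the latter count was 6. The members' median was −0.051, with 3 lower at that level. The difference between the 2 lists was not tested. In the comparison of the 2 experiments, edgeR called 4 of 13 cohesin genes higher, 4 of 19 other mitotic entry regulators lower (CKS2 at log2 −1.06 ± 0.22, edgeR adjusted p = 0.0117) and 4 of 29 other spindle and cytokinesis genes lower. It called 2 genes of the anaphase-promoting complex higher and 1 lower, and 0 in the other lists. Of all genes, 4.29 percent were called higher and 4.12 percent lower. Most of these calls were lost without si replicate 1 or si replicate 2, but not without si replicate 3. Without si replicate 1, edgeR called 1 cohesin gene, 1 entry regulator, 0 spindle and cytokinesis genes and 0 anaphase-promoting complex genes. Without si replicate 2 the counts were 2, 1, 0 and 0 in that order, and without si replicate 3 they were 5, 7, 5 and 3. CKS2 and the cohesin gene PDS5B stayed called without any 1 library. The shares of all genes called in these refits are not given here.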

How the data were processed

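Per the labels' protocols, TRIzol was used for RNA extraction and the libraries were stranded and polyA-selected. The authors deposited raw counts per gene, and per the submitters' processing notes fastp 0.23.0 and featureCounts of Subread 1.5.1 were used; for the aligner, the build and the counting strand nothing is stated in the sources used here. The deposited RPKM could be recomputed from the counts, the exon lengths and the totals per library (largest relative deviation 5.3e-15). Left out were 2 entries of the counts that name no gene (0.0868 to 0.116 percent). Since 66.2 to 69.3 percent of counts above 0 are even numbers, halved counts were tried as well.

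Differences were tested with edgeR 4.0.16 (R 4.3.3): TMM scaling, filterByExpr (minimum count 10, minimum total 15), and the quasi-likelihood F test fitted once to the 12 libraries, each group having its own mean (8 residual degrees of freedom), with p-values adjusted by Benjamini-Hochberg and a threshold of 0.05. Each standard error was taken as |log2 change| over the square root of F; 95% intervals use edgeR's total degrees of freedom. The procedure was tested on simulated counts drawn independently for each gene. These held no shift of related genes in a single library and no length trend, so the effect of those on the calls was not tested. Members, roles and lists were chosen with earlier results of these data known. Changes are given for every member called in any comparison and for the 5 smallest p-values in each; called genes of other lists are given up to 3 per list, and some are not named. Deviations use log2 CPM with a prior count of 2. Chromosome numbers come from the RefSeq gene table of ARS-UCD2.0, which matched all 49 symbols. Limma 3.58.1 on log2(RPKM + 1) or log2(RPKM + 0.1), the Wald test of DESeq2 1.42.0 and the other alternatives are given below.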

Additional observations from a re-analysis of the deposited data

Results flagged for a closer look

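Changes in the 2 experiments differed by the test of the difference for 2 members. For CDC20 the change in OE less the change in si was −0.999 on the log2 scale (edgeR adjusted p = 0.00819, all 12 libraries), with all 3 si libraries above si_NC and all 3 OE libraries below OE_NC. For BIRC5 it was −0.72 (edgeR adjusted p = 0.0171), with the same separation. The BIRC5 call ended when si replicate 1, si replicate 2 or OE replicate 2 was left out. The controls of CDC20 differed as well (log2 0.65 in OE_NC against si_NC), so its levels in OE (18.1 ± 0.742 CPM) and si_NC (16.7 ± 3.56 CPM) lay close together. For BIRC5 the controls stood at 64.0 ± 8.0 and 58.3 ± 9.63 CPM.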

How the results depend on the processing

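Members called in si against si_NC (0 in the report) were 1 with library totals, 1 with DESeq2 and 2 with no filter on low counts, and 0 to 2 without 1 library. In OE against OE_NC (1 in the report) they were 2 with library totals, with a filter of 5 CPM in 3 libraries or with halved counts, 3 with DESeq2, no filter or only the groups compared, 0 with the length trend removed, and 0 to 2 without 1 library. In the difference they were 2 or 3 under every alternative other than leaving out 1 library, which gave 1 to 2. In OE_NC against si_NC (2 in the report) they were 5 with library totals, 5 with no filter, 4 with limma on either RPKM scale, 10 without si replicate 3 and si_NC replicate 2 together, and 2 to 7 without 1 library. The shares of all genes called under these alternatives are not given here, so the counts cannot be set beside them. The members' median ran from −0.092 to 0.15 in si, −0.107 to −0.011 in OE, −0.23 to 0.032 in the difference and −0.126 to 0.117 between controls. Its sign thus changed in every comparison but OE. Each shift was smaller than the SD of the difference of the list's median between single libraries of the groups compared (0.27, 0.12, 0.30 and 0.27 in that order). That SD is wide beside the medians, so few alternatives could have exceeded it. Library totals moved the median of all genes by 0.079 in si, −0.056 in OE, −0.135 in the difference and 0.091 between controls. The sign of CDC25B in si turned with library totals (0.014) and limma on RPKM (0.012 and 0.015), and that of BIRC5 between controls with the length trend removed (−0.048); none of these was called, and the cause was not tested. Replicate number as a replicate block gave 0, 1, 2 and 2 members called, as without it, and among the other genes named in OE it ended the call of ARPP19 (adjusted p = 0.0555); deviations of same-numbered libraries correlated at −0.26 to 0.19, so the numbers were not taken as pairs, and the libraries that correlated best shared a number for 0 of 3 numbers in si against si_NC and 1 of 3 in the other comparisons of 2 groups. Medians of the roles and other lists without 1 library were added after seeing the data.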
